A study of Mus musculus with 8 samples.

Results

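The nuclear genes for subunits of the mitochondrial respiratory chain and of ATP synthase were compared between livers of newborn mice with and without Mfp2. The set holds 81 genes of the 18193 with a probe set of their own on the array. They are the genes named Ndufa, Ndufb, Ndufc, Ndufs or Ndufv with a number (35 genes, complex I), Sdha to Sdhd (4 genes, complex II), Uqcr (8 genes, complex III), Cox4 to Cox8 (17 genes, complex IV) and Atp5 (17 genes, complex V). Where a gene had several probe sets, the brightest by mean over the 8 arrays represented it. Total RNA came from livers of mice aged 2 days, 4 of the genotype Mfp2 -/- (knockout) and 4 wild type, with 1 array per liver. Mfp2 is the multifunctional protein of peroxisomal beta-oxidation, encoded by Hsd17b4. The labels name no cell type or promoter to which the deletion was limited, and give neither strain nor sex.

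The respiratory chain passes electrons from NADH and succinate to oxygen and pumps protons across the inner mitochondrial membrane. Complex I takes electrons from NADH and complex II from succinate, complex III hands them to cytochrome c, complex IV reduces oxygen, and complex V, the ATP synthase, uses the proton gradient to make ATP. The complexes hold many subunits made from nuclear genes, and all but complex II also hold subunits made from mitochondrial DNA, which are not among these 81 genes. In liver around birth mitochondria are known to gain respiratory capacity as the animal turns to milk fat as fuel. Known regulators of these nuclear genes include the factors NRF1, GABPA (an ETS factor), YY1 and ERRalpha.

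Letters known from sites of those factors were looked for in the genes' promoters. RefSeq promoters (250 bases before to 50 after the start, GRCm38.p6) were matched for 66 of the 81 genes, and 17492 protein-coding genes served as the comparison. On either strand, CCGGAAG, an ETS core, was found in 25.8% of the 66 genes and 12.9% of all genes. TGCGCA, a core of NRF1 sites, was found in 25.8% and 11%, and GCATGCGC, another part of NRF1 sites that shares letters with it, in 13.6% and 3.94%. AAGATGGC, a YY1 word, was found in 13.6% and 3.57%, and TCAAGGTCA, an ERR word, in 3.03% and 0.377%. TATAAA was found in 12.1% and 14.8%. A gene counted when any of its promoters held the word, with 1.08 promoters per gene in the set and 1.22 in general. These are matches of letters and not shown binding sites. Cox6a1 and Sdhd are printed because they held several of the words, and Ndufs4, Ndufa6 and Cox7a2l because their knockout and wild type values did not overlap. Capitals mark the NRF1, ETS, YY1 and ERR words on either strand. In GRCm38.p6 the windows are Cox6a1 at chr5:115348909-115349208 (minus strand), Sdhd at chr9:50603800-50604099 (minus strand), Ndufs4 at chr13:114388045-114388344 (minus strand), Ndufa6 at chr15:82354242-82354541 (minus strand) and Cox7a2l at chr17:83514284-83514583 (minus strand).
Cox6a1: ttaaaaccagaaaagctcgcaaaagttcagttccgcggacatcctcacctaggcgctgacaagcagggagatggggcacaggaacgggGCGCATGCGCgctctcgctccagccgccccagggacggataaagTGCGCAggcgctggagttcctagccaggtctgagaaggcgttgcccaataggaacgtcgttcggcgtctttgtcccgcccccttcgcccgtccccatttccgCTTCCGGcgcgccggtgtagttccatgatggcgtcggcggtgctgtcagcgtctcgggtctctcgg
Sdhd: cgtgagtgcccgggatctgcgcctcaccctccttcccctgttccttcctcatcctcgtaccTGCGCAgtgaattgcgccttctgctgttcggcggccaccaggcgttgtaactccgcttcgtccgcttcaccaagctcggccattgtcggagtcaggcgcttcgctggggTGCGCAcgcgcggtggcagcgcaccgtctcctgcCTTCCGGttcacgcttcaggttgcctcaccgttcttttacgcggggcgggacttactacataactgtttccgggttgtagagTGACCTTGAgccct
Ndufs4: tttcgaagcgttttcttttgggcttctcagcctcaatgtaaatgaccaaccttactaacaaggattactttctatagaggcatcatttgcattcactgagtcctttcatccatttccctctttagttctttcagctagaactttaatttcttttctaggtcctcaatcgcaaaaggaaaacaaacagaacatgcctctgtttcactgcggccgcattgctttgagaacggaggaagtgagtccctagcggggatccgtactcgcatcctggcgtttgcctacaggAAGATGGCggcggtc
Ndufa6: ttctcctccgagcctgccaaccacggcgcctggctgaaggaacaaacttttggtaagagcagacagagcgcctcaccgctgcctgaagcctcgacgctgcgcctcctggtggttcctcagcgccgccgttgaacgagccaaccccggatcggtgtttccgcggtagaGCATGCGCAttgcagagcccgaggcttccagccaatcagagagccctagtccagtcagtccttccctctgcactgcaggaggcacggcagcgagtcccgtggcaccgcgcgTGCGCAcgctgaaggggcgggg
Cox7a2l: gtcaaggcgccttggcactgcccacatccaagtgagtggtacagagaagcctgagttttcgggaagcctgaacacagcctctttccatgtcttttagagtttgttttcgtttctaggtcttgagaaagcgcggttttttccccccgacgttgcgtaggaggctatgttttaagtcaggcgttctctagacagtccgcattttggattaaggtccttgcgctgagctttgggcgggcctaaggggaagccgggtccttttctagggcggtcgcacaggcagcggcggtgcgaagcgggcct

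The Cox6a1 window held GCATGCGC on both strands at overlapping positions, and TGCGCA and the ETS core in reverse (CTTCCGG) at 1 position each. The Sdhd window held 2 matches of TGCGCA, 1 of the ETS core and 1 of the ERR word. Ndufs4 held the YY1 word just after its start, Ndufa6 held TGCGCA at 2 positions and GCATGCGC across 1 of them, and Cox7a2l held none of the words, which says only that these letters are not in this window.

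Of the whole series, the following bears on the set. Over all probe sets, arrays of 1 group correlated at 0.983 to 0.993 (Pearson) and arrays of different groups at 0.976 to 0.989. Hsd17b4 lay between 3.25 and 4.29 on the log2 scale in knockout and between 8.15 and 8.97 in wild type livers, a difference of -4.66 ± 0.25 (SE) with a limma adjusted p of 0.0001, so each array matched its label. Xist, which coats the inactive X chromosome, lay between 8.59 and 9.28 in knockout 1, knockout 2 and wild type 3 and between 2.83 and 4.32 in the other livers, so the sexes were not balanced. Values for replicates 1 and 2 alone thus compare knockouts with high Xist and wild types with low Xist. In replicates 3 and 4 only wild type 3 was high. The part of sex in the values below was not tested. All 6 measured hepatocyte markers lay above every array median. Markers of red cell precursors, which make up part of newborn liver, differed between the genotypes. Of 15 listed, 10 were measured. Of these 9 had lower means in the knockout, all 9 at an unadjusted p under 0.05 in limma, and 1 passed the threshold. The summed level of the 10 was 11.81 to 12.60 in knockout and 12.93 to 13.18 in wild type livers (log2). Hba-a1 was the marker that was not lower, with means of 2.14 and 1.90, under every array median. Of 5 measured B cell precursor markers all had lower means, 3 at an unadjusted p under 0.05 in limma and 0 past the threshold. Their summed level was 7.16 to 7.50 in knockout and 7.09 to 8.30 in wild type livers. Over all genes 8.18% were lower at this unadjusted p, and 0.841% were lower past the threshold. Of 8 neutrophil markers 7 had lower means and 0 passed, with sums of 13.83 to 14.43 and 14.13 to 14.54. Of the hepatocyte markers 4 had higher means and 0 passed, and their summed level did not overlap, at 15.34 to 15.40 in knockout and 15.30 to 15.33 in wild type livers. The part of these cell types in the values below was not tested. In a whole liver, a change in the number of cells of a type and a change in RNA per cell cannot be told apart.

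None of the 81 genes passed the threshold, an adjusted p under 0.05 in limma over 45037 probe sets (0 higher and 0 lower). Over all genes 1.15% passed, 0.308% higher and 0.841% lower, and over all probe sets 0.762%. Of genes above every array median 1.77% passed. Of the 164 probe sets annotated to 1 of these genes alone 0 passed, with a lowest adjusted p of 0.132. Of these probe sets 9 had an unadjusted p under 0.05, 7 higher and 2 lower in the knockout. The higher ones include every probe set of Cox7a2l. Of the lower ones, that of Ndufs8 averaged 10.07 and differed by -0.22 ± 0.08 (SE; limma adjusted p 0.336). The brightest of Ndufs8 averaged 10.09 and differed by -0.17. The other lower one, of Atp5g1, averaged 1.96, under every array median. By brightest probe set, 4 genes had an unadjusted p under 0.05, all higher in the knockout. Over all genes this share was 14.6% in either direction and 6.4% in this direction. The differences were small in size: 79 of the 81 lay within 0.25 of 0 on the log2 scale. The other two were Cox7a2l and Cox7c.

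The intervals give how large a change these arrays leave possible. The 95% interval of the difference lay within a 1.5-fold change in either direction (0.585 on the log2 scale) for 75 of the 81 genes, or 92.6%. This held for 69.1% of the 11721 genes whose mean lay above every array median, and for 77.7% of all genes. For the narrower bound of 1.2-fold the count was 13 of 81, or 16%, against 6.89% and 9.99%. The set was brighter than the genes above every array median, with a median level of 9.76 against 6.13. In the lists of other mitochondrial and ribosomal genes given further below, the share within 1.5-fold ran from 57.1% (regulators) to 100% (electron carriers). Within 1.2-fold it ran from 0% (TCA cycle with pyruvate dehydrogenase) to 38.1% (cytosolic ribosome). The median width of the interval to each side was 0.25 in the set and 0.29 over the genes above every array median. The 6 genes with wider or shifted intervals were Ndufa12, Ndufa4, Uqcrc2, Cox6b2, Cox7a2l and Cox7c, and for these a change of more than 1.5-fold lay inside the interval. Of the set, 77 genes lay above every array median (3.68 to 3.73) and 70 had a mean above 8.

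**Figure D1:**
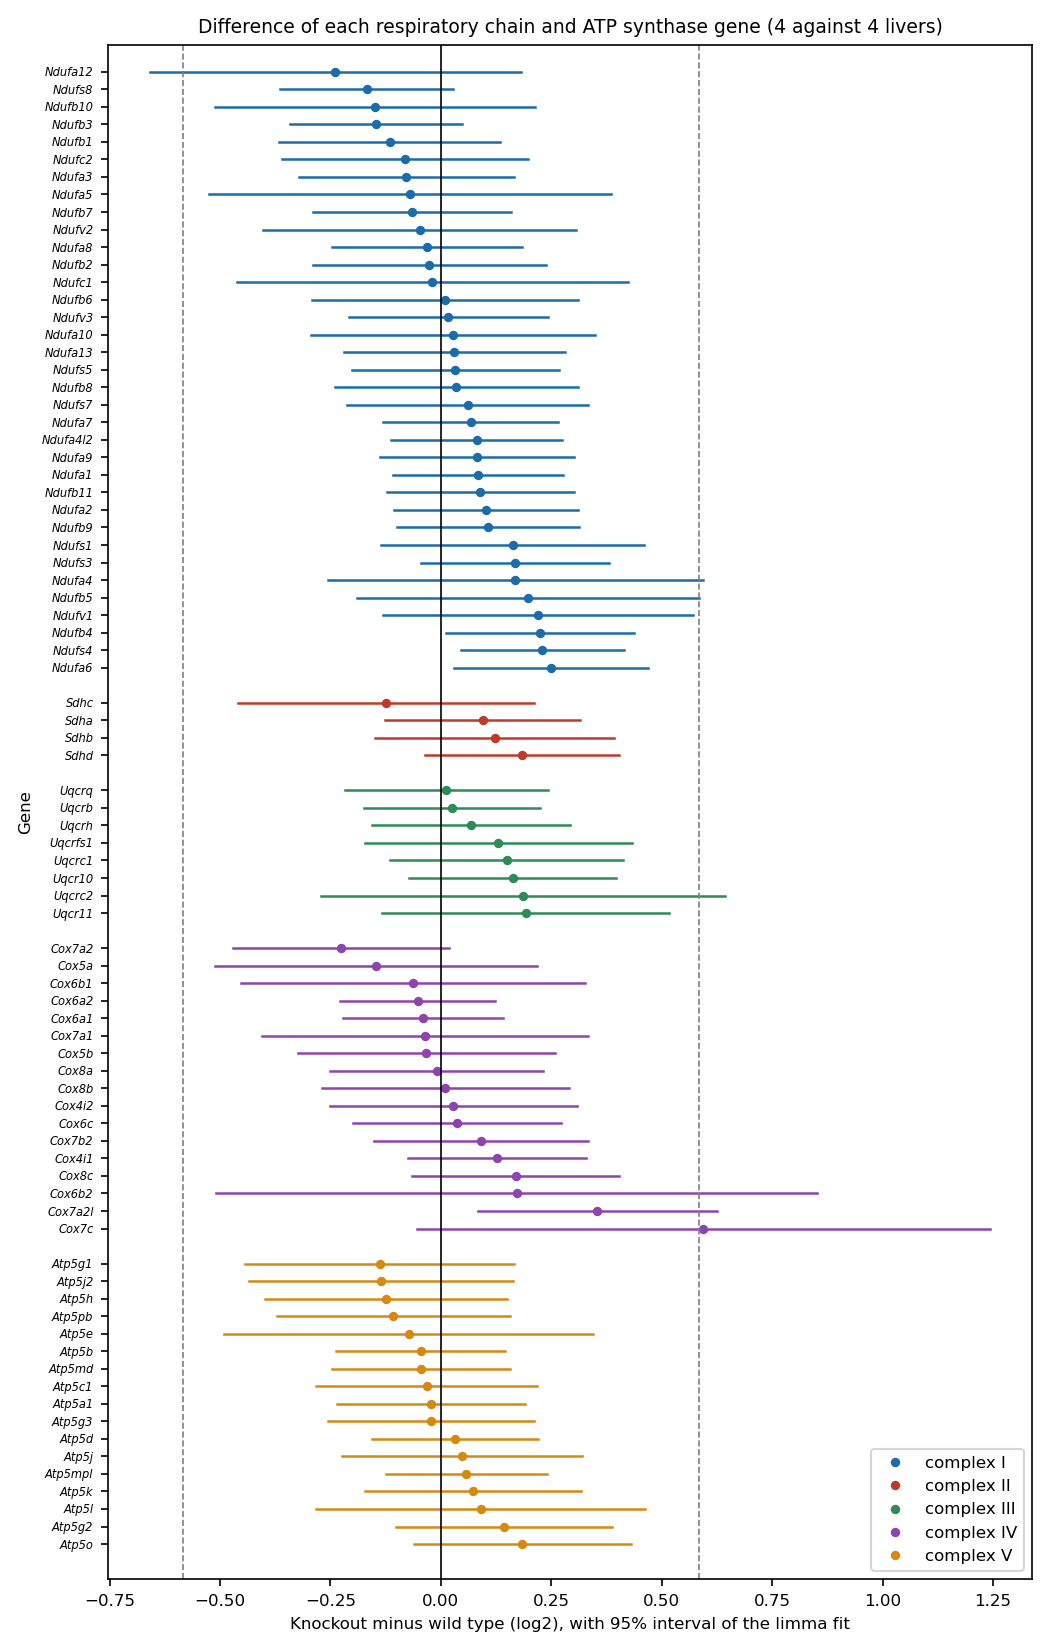
Difference between knockout and wild type livers for each of the 81 genes, by complex, on the log2 scale. Points are limma estimates from 4 against 4 livers, lines are 95% intervals, and dashed lines mark 1.5-fold. The intervals of 75 genes lie between the dashed lines, and those of 4 genes (Ndufb4, Ndufs4, Ndufa6 and Cox7a2l) do not reach 0.

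**Figure D2:**
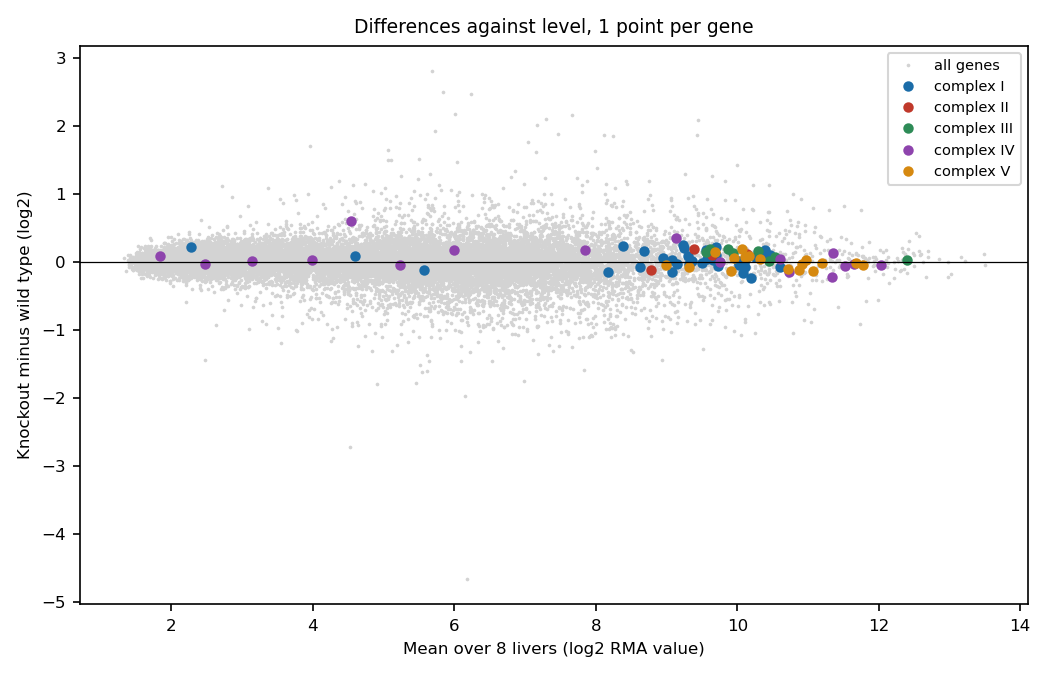
Difference between knockout and wild type (log2) against the mean over 8 livers (log2), 1 point per gene, with the 18193 genes in grey and the 81 genes in colour by complex. The coloured points lie between -0.24 and 0.59, while the grey points run from -4.66 to 2.81.

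Across the set 49 genes (60.5%) had a higher and 32 a lower mean in the knockout, and 53.3% of all genes had a higher mean. The median difference was 0.03, beside 0.01 over all genes. In replicates 1 and 2 alone it was -0.01, and in replicates 3 and 4 alone 0.06. It depended on single livers: leaving out knockout 2 gave 0.08, wild type 1 0.06, knockout 4 0.01, wild type 2 0.02 and knockout 3 -0.0005.

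Complex I, the NADH dehydrogenase, was represented by 35 genes, of which 22 had higher and 13 lower means in the knockout, with a median difference of 0.03. With 1 liver left out the median ran from -0.01 (no knockout 3) to 0.09 (no knockout 2), and it was -0.01 in replicates 1 and 2 alone and 0.08 in replicates 3 and 4 alone. Core genes of the complex among the 35 are Ndufs1, Ndufs3, Ndufs7, Ndufs8, Ndufv1 and Ndufv2, whose proteins belong to the part that leads electrons from NADH toward ubiquinone. Their differences lay between -0.17 ± 0.09 (SE) for Ndufs8 and 0.22 ± 0.16 for Ndufv1, with limma adjusted p of 0.525 or more. Ndufv1, which binds NADH and FMN, read 9.76, 9.32, 10.08 and 10.05 in knockouts 1 to 4 and 9.62, 9.61, 9.52 and 9.59 in wild types 1 to 4. Here 3 knockout livers lay above all wild type livers and knockout 2 below all of them. A dimmer probe set of Ndufv1 differed by 0.41 ± 0.16 (adjusted p 0.350).

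Among the accessory subunits of complex I, Ndufs4, a subunit needed for a stable and active complex, had the lowest p. It read 8.53, 8.45, 8.58 and 8.42 in knockouts 1 to 4 and 8.22, 8.32, 8.24 and 8.28 in wild types 1 to 4. The groups did not overlap, with a difference of 0.23 ± 0.08 (SE; 95% interval 0.05 to 0.41), a 1.17-fold level, and a limma adjusted p of 0.293. Only this probe set of Ndufs4 was well above the array medians. The other probe sets of the gene, with means of 4.37, 3.67 and 2.12, differed by 0.08, -0.20 and 0.03.

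Ndufa6, an accessory subunit of the matrix arm, read 9.28, 9.22, 9.52 and 9.41 in knockouts 1 to 4 and 9.22, 9.03, 9.15 and 9.04 in wild types 1 to 4. The lowest knockout and the highest wild type liver nearly touched. The difference was 0.25 ± 0.10 (SE), or 1.19-fold, with a limma adjusted p of 0.351, with 0.13 in replicates 1 and 2 alone and 0.37 in replicates 3 and 4 alone. Ndufb4, a subunit of the membrane arm, was the other complex I gene without overlap, at 0.22 ± 0.10 (adjusted p 0.394), but its probe set averaged 2.28, under every array median, so its expression is not shown by it. Probe sets that list a member beside another gene were left out by rule. In all 4 of the 81 genes did not overlap between the groups, all 4 higher in the knockout, where 8.61% of all genes did not overlap and 3.59% did so with the knockout higher.

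The lowest estimate in complex I was that of Ndufa12, an accessory subunit near the matrix arm. It read 10.34, 9.43, 10.37 and 10.16 in knockouts 1 to 4 and 10.33, 10.27, 10.34 and 10.32 in wild types 1 to 4. Knockout 2 was the lowest, knockout 4 also lay below all wild types, and the difference was -0.24 ± 0.19 (SE; 95% interval -0.66 to 0.18; limma adjusted p 0.706). In the next probe set of Ndufa12 by signal, at 9.99, 9.51, 10.14 and 9.92 in knockouts and 10.16, 10.00, 10.23 and 10.12 in wild types, 3 knockouts lay below all wild types, with a difference of -0.24 ± 0.13 (adjusted p 0.561). By letter of the name, the 13 Ndufa genes had a median difference of 0.07, the 11 Ndufb genes 0.01, the 2 Ndufc genes -0.05, the 6 Ndufs genes 0.11 and the 3 Ndufv genes 0.02. Ndufc2, with the highest signal of the complex I genes, differed by -0.08 ± 0.13.

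Ndufa4 is counted with complex I by its name, though its protein is now placed with complex IV. It read 10.17, 10.22, 10.79 and 10.70 in knockouts 1 to 4 and 10.24, 9.89, 10.54 and 10.54 in wild types 1 to 4, so in both genotypes replicates 3 and 4 were higher than replicates 1 and 2. The difference was 0.17 ± 0.19 (adjusted p 0.815). Its relative Ndufa4l2, a gene known to be induced by low oxygen, averaged 4.59 and differed by 0.08 ± 0.09 (adjusted p 0.802).

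Complex II, the succinate dehydrogenase shared with the TCA cycle, had a median difference of 0.11 over its 4 genes. With 1 liver left out the median ran from 0.06 (no wild type 3) to 0.16 (no knockout 2). In replicates 1 and 2 alone the median was -0.04, and in replicates 3 and 4 alone 0.21. Sdha, the flavoprotein that oxidises succinate, differed by 0.09 ± 0.10 (SE), and Sdhb, the iron-sulfur subunit, by 0.12 ± 0.12. Of the membrane anchors, Sdhc differed by -0.12 ± 0.15 and Sdhd by 0.18 ± 0.10, with limma adjusted p of 0.535 or more over the 4 genes. Sdhd read 9.56, 9.28, 9.60 and 9.47 in knockouts 1 to 4 and 9.40, 9.25, 9.26 and 9.26 in wild types 1 to 4. Only knockout 2 fell among the wild type values.

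All 8 genes of the set in complex III, the cytochrome bc1 complex, had higher means in the knockout. Their median difference was 0.14, with 0.08 in replicates 1 and 2 alone and 0.18 in replicates 3 and 4 alone. This count rested on small estimates: Uqcrq turned to -0.02 after quantile normalization again and to -0.002 after median centring, and in replicates 1 and 2 alone Uqcrfs1 and Uqcrh were lower, at -0.03 and -0.01. In replicates 3 and 4 alone Uqcrb was lower, at -0.02. The count also rested on the choice of probe set. A dimmer probe set of Uqcrb, with a mean of 9.09, differed by -0.06 ± 0.12 (SE; limma adjusted p 0.919), and the dimmer ones of Uqcr10, given below, were also lower. With 1 liver left out, 7 or 8 of the 8 were higher. No gene passed, the lowest limma adjusted p was 0.626, and in all 8 the groups overlapped. The median with 1 liver left out ran from 0.07 (no knockout 1) to 0.19 (no wild type 1), and was 0.08 without knockout 3 or wild type 3. Uqcr11, a small accessory subunit, differed by 0.19 ± 0.15 (SE), and Uqcrc1, a core subunit, by 0.15 ± 0.12. Uqcrfs1, the Rieske iron-sulfur protein, differed by 0.13 ± 0.14. Uqcrb, which helps to bind ubiquinone, and Uqcrq, a small neighbour of cytochrome b, differed by 0.03 ± 0.09 and 0.01 ± 0.10.

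Uqcrc2 is the second core protein. Its brightest probe set read 10.29, 10.19, 9.76 and 9.60 in knockouts 1 to 4 and 10.17, 9.99, 9.44 and 9.50 in wild types 1 to 4, so replicates 1 and 2 of both genotypes lay above replicates 3 and 4 of both. The difference between genotypes was 0.19 ± 0.21 (SE; limma adjusted p 0.809). The other probe set of Uqcrc2 did not split by replicate number. It read 9.34, 8.84, 9.38 and 8.93 in knockouts and 9.06, 9.09, 8.99 and 8.99 in wild types, a difference of 0.09 ± 0.13 (adjusted p 0.870). No label says what separates replicates 1 and 2 from 3 and 4. Among the knockouts this split is also one by Xist, high in 1 and 2 and low in 3 and 4. Among the wild types Xist was high in wild type 3 only. Correlations over all probe sets, given in the last section, also followed the split.

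The probe sets of Uqcr10, a small subunit of complex III, disagreed. The one with the highest signal differed by 0.16 ± 0.11 (SE), while the others differed by -0.19 ± 0.26 and -0.80 ± 0.60 (limma adjusted p 0.853 and 0.688). In the latter, knockout 1 read 3.63, while the other knockouts read 5.82, 6.81 and 6.62 and the wild types 6.50, 6.53, 7.06 and 5.98. Knockout 1 was the highest of the 8 livers in the brightest probe set, at 10.60, and the lowest in the other two.

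Complex IV, the cytochrome c oxidase, had a median difference of 0.01 over 17 genes, 9 with higher and 8 with lower means. With 1 liver left out the median ran from -0.03 (no knockout 4) to 0.04 (no knockout 2). Cox7a2l, a factor that joins complexes III and IV into supercomplexes, had the lowest p of the 81 genes. It read 9.32, 9.25, 9.33 and 9.32 in knockouts 1 to 4 and 9.14, 9.15, 8.64 and 8.88 in wild types 1 to 4. The knockout livers lay close together, and the wild type livers were all lower and more spread, wild types 3 and 4 most. The difference was 0.35 ± 0.12 (SE; 95% interval 0.08 to 0.63), or 1.28-fold, with a limma adjusted p of 0.267, with 0.14 in replicates 1 and 2 alone and 0.56 in replicates 3 and 4 alone.

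The other probe sets of Cox7a2l gave like values. They differed by 0.41 ± 0.14 (SE) and 0.44 ± 0.11, with limma adjusted p of 0.257 and 0.132, and the latter is the lowest of the 164 probe sets. In that probe set the knockouts read 8.41, 8.40, 8.40 and 8.44 and the wild types 8.17, 8.15, 7.84 and 7.75. All 3 probe sets thus had knockout values above all wild type values, with wild types 3 and 4 lowest, though probe sets of 1 gene read the same RNA and are not independent.

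Cox7a2, the form of subunit VIIa made in most tissues including liver, had the lowest estimate of complex IV. It read 11.26, 10.98, 11.36 and 11.28 in knockouts 1 to 4 and 11.37, 11.33, 11.52 and 11.57 in wild types 1 to 4, a difference of -0.23 ± 0.11 (SE; 95% interval -0.47 to 0.02; limma adjusted p 0.476). The groups overlapped through wild type 2 and knockout 3. The heart and muscle form, Cox7a1, averaged 2.47, under every array median, and differed by -0.04 ± 0.17.

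**Figure D3:**
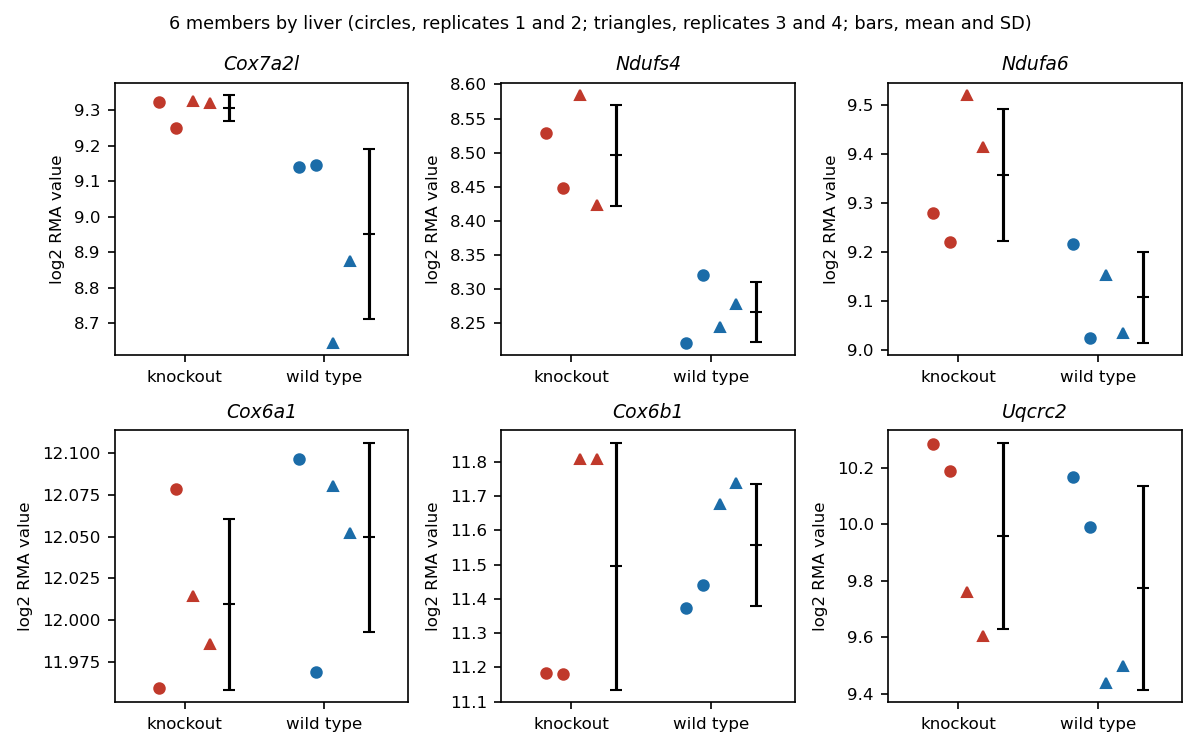
Values of 6 genes in each liver (log2 RMA value), knockout in red and wild type in blue, with circles for replicates 1 and 2, triangles for replicates 3 and 4, and black bars for the mean and SD of 4 livers. The vertical scale differs between panels and does not start at 0. Cox7a2l, Ndufs4 and Ndufa6 do not overlap between the groups, and Cox6b1 and the brightest probe set of Uqcrc2, the one plotted, separate by replicate number in both genotypes.

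The other paired forms of complex IV subunits were as follows. Cox4i1, the general form of the regulatory subunit IV, differed by 0.13 ± 0.09 (SE), and its lung form Cox4i2, near the array medians with a mean of 3.99, by 0.03 ± 0.13. Cox6a1 read 11.96, 12.08, 12.01 and 11.99 in knockouts and 12.10, 11.97, 12.08 and 12.05 in wild types 1 to 4. Its difference was -0.04 ± 0.08, with a 95% interval from -0.22 to 0.14. The heart and muscle form Cox6a2 averaged 5.23 and differed by -0.05 ± 0.08. Cox8a, the general form of subunit VIII, differed by -0.01 ± 0.11, the heart and muscle form Cox8b, under every array median, by 0.01 ± 0.13, and the testis form Cox8c by 0.17 ± 0.11. The limma adjusted p of these 7 genes lay between 0.608 and 0.988. Skeletal muscle and brown fat markers, of which 0 of 6 and 0 of 3 passed the threshold, had summed levels of 6.22 to 6.36 against 6.24 to 6.45 and of 3.98 to 4.12 against 3.90 to 4.13 (log2, knockout against wild type).

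Cox6b1, the general form of subunit VIb, on the face of the complex toward cytochrome c, read 11.18, 11.18, 11.81 and 11.81 in knockouts 1 to 4 and 11.37, 11.44, 11.68 and 11.74 in wild types 1 to 4. Replicates 3 and 4 were higher in both genotypes, and the difference between genotypes was -0.06 ± 0.17 (SE; limma adjusted p 0.940). Cox6b2, the testis form, had the widest SD within groups of the 81 genes, at 8.68, 7.41, 8.33 and 7.34 in knockouts and 8.21, 7.67, 7.81 and 7.37 in wild types, a difference of 0.17 ± 0.30 (adjusted p 0.896). Cox6c, which has no paired form in this set, differed by 0.04 ± 0.11. Cox7c, a small subunit, was the largest estimate of the set at 0.59 ± 0.29 (95% interval -0.05 to 1.24; adjusted p 0.483), from a probe set that averaged 4.54. Its values were 4.86, 4.57, 5.52 and 4.40 in knockouts and 3.82, 5.01, 4.16 and 3.98 in wild types, so that wild type 2 lay above 3 of the knockouts. Cox7b2, a testis form, averaged 1.84, under every array median.

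Complex V, the ATP synthase, had a median difference of -0.02 over 17 genes, 7 with higher and 10 with lower means, and its genes lay between -0.14 and 0.18. With 1 liver left out the median ran from -0.06 (no knockout 3) to 0.04 (no knockout 2). The 95% interval of each of the 17 genes lay within 1.5-fold. The catalytic head is made of subunits alpha and beta. Atp5a1 (alpha) differed by -0.02 ± 0.10 (SE) and Atp5b (beta) by -0.05 ± 0.09. Atp5b read 11.78, 11.64, 11.84 and 11.76 in knockouts 1 to 4 and 11.84, 11.74, 11.76 and 11.86 in wild types 1 to 4, with full overlap. Of the central stalk, Atp5c1 (gamma), Atp5d (delta) and Atp5e (epsilon) differed by -0.03 ± 0.11, 0.03 ± 0.08 and -0.07 ± 0.19.

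Subunit c, which forms the rotating ring in the membrane, is made from 3 genes for the same mature protein. Atp5g1 differed by -0.14 ± 0.14 (SE), Atp5g2 by 0.14 ± 0.11 and Atp5g3 by -0.02 ± 0.10, with limma adjusted p of 0.779, 0.699 and 0.967. A second probe set of Atp5g1, with a mean of 1.96, differed by -0.37 ± 0.11 (adjusted p 0.197) and lies under every array median. Atp5o, the subunit that holds the head to the outer stalk, had the largest estimate of complex V. It read 10.04, 9.99, 10.32 and 10.28 in knockouts and 10.13, 9.84, 9.93 and 9.99 in wild types 1 to 4, a difference of 0.18 ± 0.11 (adjusted p 0.594). A dimmer probe set of Atp5o, with a mean of 8.78, differed by -0.05 ± 0.16 (adjusted p 0.950). Such disagreement was common: 42 of the 81 genes had several probe sets above every array median, and in 18 of them these differed in sign, with a median range of 0.10 and a largest of 0.96 (Uqcr10). Atp5md, a small membrane subunit linked to pairing of ATP synthases, differed by -0.05 ± 0.09.

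Many of the genes were low or high in the same livers. Knockout 2 was the lowest of the 8 livers for 35 of the 81 genes (43.2%) and wild type 2 for 19 (23.5%), where these livers were lowest for 14.3% and 12.2% of the genes above every array median. Knockout 3 was the highest for 31 of the 81 (38.3%), against 17.1% of those genes. The median deviation from the mean of each gene was -0.14 in knockout 2 and 0.13 in knockout 3, with -0.01 in each over the genes above every array median. The remaining knockouts lay at 0.05 and 0.02, and wild types 1 to 4 at 0.04, -0.08, -0.01 and 0.01. The livers with the lowest and the highest medians were therefore both knockouts, and the wild type livers lay between them. In knockout 2 the median was below 0 in each complex, from -0.08 in complex IV to -0.19 in complex V, and in knockout 3 it was above 0 in each, from 0.11 in complex V to 0.19 in complex II.

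**Figure D4:**
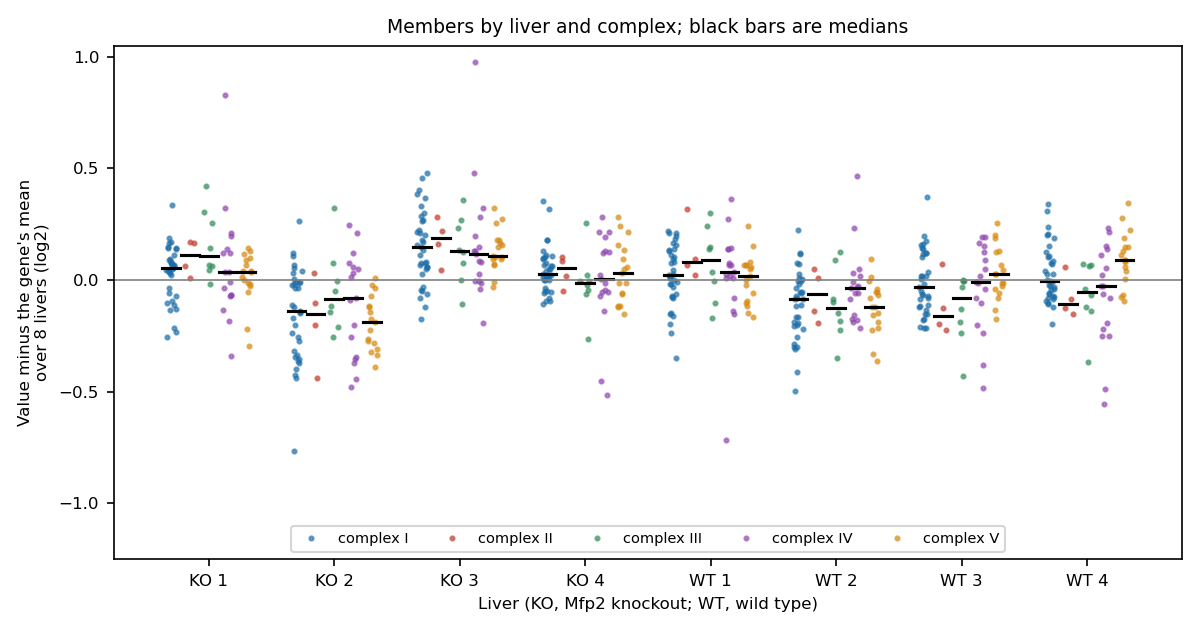
Value of each of the 81 genes in each liver minus its own mean over 8 livers (log2), in colour by complex, with black bars for the median of a complex. The medians of knockout 2 lie below 0 and those of knockout 3 above 0 in every complex, while wild type livers lie between these livers by median over all 81 genes.

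Other genes of mitochondrial energy metabolism were counted in the same fit, from lists of textbook members. Of 42 measured assembly factors for the complexes, 17 had higher and 25 lower means, with a median difference of -0.03. In limma 0 passed and 6 were at an unadjusted p under 0.05, 1 higher and 5 lower. Over all genes 14.6% reached this p, 6.4% higher and 8.18% lower, so these 6 of 42 are near that share. Ndufaf5, a complex I assembly factor, differed by -0.43 ± 0.12 (SE; adjusted p 0.157), and Sco2, which brings copper to complex IV, by 0.55 ± 0.17 (adjusted p 0.206). Of 18 measured genes in a list of electron carriers and coenzyme Q synthesis 0 passed, with a median of 0.01. This list also named Cyc1 and Ndufab1, subunits of complexes III and I that the naming rule of the set does not reach. Etfdh and Etfa, which carry electrons from fatty acid oxidation to coenzyme Q, differed by 0.34 ± 0.09 and 0.21 ± 0.09 (adjusted p 0.142 and 0.392), the 2 of the list at an unadjusted p under 0.05.

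The TCA cycle feeds NADH and succinate to complexes I and II. A list of its genes together with those of pyruvate dehydrogenase had a median difference of 0.13. Of the 16 measured genes of this list 13 had higher and 3 lower means, and 0 passed in limma. At an unadjusted p under 0.05 there were 3 genes, all higher. Over all genes 14.6% reached this p, 6.4% higher and 8.18% lower, and 53.3% had higher means. These shares also stand beside the counts of the lists that follow. Dlat, of the pyruvate dehydrogenase complex, differed by 0.55 ± 0.14 (SE; adjusted p 0.134), and Suclg1, of succinyl-CoA ligase, by 0.49 ± 0.13 (adjusted p 0.145). Among 14 regulators of mitochondrial genes 0 passed, with a median of 0.08 and 2 higher and 2 lower at an unadjusted p under 0.05. Ppargc1b, a coactivator of mitochondrial genes, differed by 0.60 ± 0.20 (adjusted p 0.257), and Nrf1, whose protein binds the NRF1 words above, by -0.37 ± 0.14 (adjusted p 0.330). The mitochondrial ribosome makes the subunits encoded in mitochondrial DNA. Its genes numbered 76, of which 25 had higher and 51 lower means, with a median difference of -0.06. Of these 0 passed in limma and 3 were at an unadjusted p under 0.05, all lower, where 8.18% of all genes were lower at this p. Mrpl4 and Mrps16 differed by -0.27 ± 0.09 and -0.32 ± 0.12 (adjusted p 0.235 and 0.328). Of 42 cytosolic ribosomal protein genes 0 passed, with a median of 0.01, 1 gene at an unadjusted p under 0.05 (Rps27, 0.34 ± 0.15, adjusted p 0.393), and Rpl41 next at -0.17 ± 0.08 (adjusted p 0.444).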

How the data were processed

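Log2 expression values of 8 liver arrays were analysed. Per the submitters' processing notes the authors made the deposited log2 values with RMA, which corrects background, gives arrays a shared distribution and summarises each probe set. Its software and settings: not given in the sources used here. Because of that shared distribution, a change in total mRNA per liver cannot be seen. That the scale is log2 follows from the range of the values (1.11 to 13.7).

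Of 45101 probe sets, 64 array controls were left out. The array annotation pairs 34945 probe sets with 1 gene and 932 with several, and 9160 are unnamed here. 9 probe sets that list a member beside another gene were not used. Symbols of all 81 members matched GRCm38.p6 by Entrez identifier.

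Knockout was compared with wild type in limma 3.58.1 (R 4.3.3; lmFit, eBayes, two-sided, no covariate), with Benjamini-Hochberg adjustment over 45037 probe sets and a threshold of 0.05. In simulated arrays of 45037 probe sets for this comparison, 14.9% of log2 changes of 0.5, 94.0% of changes of 1 and 100.0% of changes of 2 were recovered, and 6.71% of calls were false. Arrays give no read depth, and their number limits precision.

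The members and lists were chosen with earlier results of these data known, so no test of a list was made. Genes named were the 3 with the lowest p, the largest rise and fall and the brightest and dimmest of each complex, paired forms, and the 2 with the lowest p of each other list. Genes outside this rule were named after their values were seen. These are the complex I core genes, Uqcrc2, Uqcrfs1, Atp5a1 and the central stalk genes. Alternatives were a filter on dim probe sets, quantile normalization, median centring, variance trend, robust variance, array weights, blocks by replicate number or pair of replicates, each pair of replicates alone, each array left out, and other probe sets per gene.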

Additional observations from a re-analysis of the deposited data

Results flagged for a closer look

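In 4 of 74 groups of 4 livers, the gap between 1 liver and the others made up 0.87 to 0.955 of the group's range. Chance flags about 1 in 20 groups, so this count is near that share. The flag is relative to the range, and the gaps themselves were small. Cox7a2l was lower in knockout 2, at 9.25, than in the other knockouts, at 9.32 to 9.33, all still above the wild types. Sdhd was higher in wild type 1, at 9.40, than in the other wild types, at 9.25 to 9.26. Uqcrb was higher in knockout 1, at 12.46, than in the other knockouts, at 12.40. Ndufb4 was higher in knockout 2, at 2.54, than in the other knockouts, at 2.32 to 2.35, values under every array median.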

How the results depend on the processing

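The count of 0 members past the threshold was the same under all 20 alternatives. The 37 members named by rule stayed on their side of the threshold under each of these, in 736 values. The median difference of the set ran from -0.01 (replicates 1 and 2 alone) to 0.08 (without knockout 2), less than the spread between livers. Calls over all probe sets numbered 343 and were less steady: 914 with array weights, 15 with the replicate block, 4 in replicates 1 and 2 alone, and between 9 and 489 with 1 array left out. The labels tie replicate numbers to nothing, and deviations of same-numbered arrays correlated between -0.004 and 0.259, not all above 0.1. Not every array correlated best with its own number. The correlations between knockout and wild type arrays did follow the split of replicates 1 and 2 from 3 and 4. Across this split every correlation was negative, from -0.238 to -0.034. The 4 deviations of a genotype sum to 0 for each probe set, so values above 0 within the split push those across it below 0. The signs across the split are thus not separate evidence for it. Within replicates 1 and 2 the values ran from -0.004 to 0.225, and within replicates 3 and 4 from 0.015 to 0.259. With the replicate block 0 members passed too, and the median difference was 0.03. In simulated arrays 14.9% of log2 changes of 0.5 were recovered, so changes of the size estimated here would mostly be missed.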
